A study of Mus musculus with 298 samples.

Results

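The cells compared were mouse neurons whose cFOS label and firing disagreed, taken from the suprachiasmatic nucleus (SCN), the circadian pacemaker of the hypothalamus. Silent neurons labelled cFOS+ made up 51 cells, 17 from day and 34 from night slices. Active neurons labelled cFOS- made up 73 cells, 27 from day and 46 from night slices. They were chosen by the time, firing and cFOS given in the sample titles, and together were 124 cells, 41.6% of all cells in the study. Each sample was the cytoplasm of 1 neuron, drawn into the patch pipette after its firing had been recorded and sequenced alone. Mice were kept in light and dark phases of 12 hours each before slices were cut near ZT0 for day cells and near ZT12 for night cells. No genotype, strain, age or drug is given in the sources used here, and how cFOS was scored is not given there either. For context, levels are also given for the 66 silent cFOS- and 92 active cFOS+ cells.

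Fos is an immediate early gene: its transcription starts within minutes of calcium or cAMP signals and needs no new protein. Its protein cFOS joins JUN proteins in the AP-1 transcription factor and persists for hours, so it is used as a record of past activity. In the SCN, light at night induces Fos strongly, and firing is higher by day than at night. Many immediate early genes carry cAMP response elements, which bind CREB, and many clock-driven genes carry E-boxes, which bind CLOCK and BMAL1.

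The silent cFOS+ and the active cFOS- cells differ in firing and in the cFOS label at once, so in this comparison the effects of these labels cannot be told apart. No animal, slice or culture is named for any cell, and several cells could come from 1 slice. Each group was therefore 1 sample, no test was made, and every difference below describes these cells alone. Depth was alike, with 3439715 to 12447265 reads per silent cFOS+ cell (median 6451514) and 3329626 to 15923020 per active cFOS- cell (median 6548847). The median cell had 4507 detected genes among silent cFOS+ and 4362 among active cFOS- cells. Thinned to 4000000 reads, the medians were 4454 in 49 silent cFOS+ cells and 4152 in 69 active cFOS- cells. Every one of the 124 cells had at least 3 of 7 neuronal markers (Snap25, Syt1, Stmn2, Stmn3, Gad1, Gad2 and Slc32a1) at 10 CPM (count divided by the cell's total count, times 1000000) or more. Night silent cells S70 and S71, whose profiles correlated at 0.9995 despite opposite cFOS labels, were left out; among the cells compared the highest correlation of a pair was 0.679.

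A group's level is its total count for a gene, over all its cells, in CPM of the group's total, with exact Poisson 95% intervals that cover the counting of reads only. Ratios are log2 of (CPM + 1), silent cFOS+ over active cFOS-. Of 22800 genes, 11885 were measured, with 5 CPM or more in either group, and their median log2 ratio was -0.05. In silent cFOS+ cells, 47.3% of measured genes were higher and 52.7% lower with day and night pooled. The shares were 47.6% higher and 51.5% lower by day, and 47.6% higher and 52.1% lower at night. At least 2-fold higher were 1276 genes (10.7%), and at least 2-fold lower were 1853 (15.6%). A difference was said to hold when it also reached 2-fold by day, at night and without the highest cell of each group. Such differences made up 3.13% of measured genes on the higher side and 6.05% on the lower side.

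Most genes were seen in few cells: for 69.1% of measured genes the median cell was at 0 in both groups. Of 8846 genes at 20 CPM or more in either group, 52.8% had the same sign by day and at night, close to an even split. Single genes below are thus levels in these cells, and a gene's group level often rested on a few of them.

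Fos transcript was lower in the cells labelled cFOS+. In silent cFOS+ cells it ran from 0 to 9749 CPM with a median cell at 928 CPM, against 0 to 15716 CPM with a median of 2330 CPM in active cFOS- cells. The groups overlapped over nearly their whole range. The summed level was 1713 CPM (1709 to 1717) in silent cFOS+ cells and 2861 CPM (2857 to 2866) in active cFOS- cells, a log2 ratio of -0.74. By day the median cell had 571 CPM in silent cFOS+ and 2601 CPM in active cFOS- cells, with a log2 ratio of the summed levels of -0.62. At night the median cell had 1093 CPM in silent cFOS+ and 2281 CPM in active cFOS- cells, with a log2 ratio of -0.80. Fos reached 10 CPM in 42 of 51 silent cFOS+ cells (82.4%, exact binomial 95% interval 69.1 to 91.6%) and in 64 of 73 active cFOS- cells (87.7%, 77.9 to 94.2%). With day and night pooled, silent cFOS- cells had 2471 CPM and active cFOS+ cells 2169 CPM. Of these 4 groups the silent cFOS+ cells thus had the lowest and the active cFOS- cells the highest pooled Fos level. The transcript thus went against the cFOS label, and cFOS+ and cFOS- are used below as labels only.

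The promoters of Fos and of Nr4a1, another activity-induced transcription factor gene described below, are shown because both genes were lower together in silent cFOS+ cells. Each sequence is RefSeq's GRCm38.p6 window of 250 bases before to 50 after the gene's start, with the core TGACG of the cAMP response element in capitals (CGTCA where it lies on the other strand). Fos is at chr12:85473640-85473939, plus strand, and Nr4a1 at chr15:101266596-101266895, plus strand.
Fos: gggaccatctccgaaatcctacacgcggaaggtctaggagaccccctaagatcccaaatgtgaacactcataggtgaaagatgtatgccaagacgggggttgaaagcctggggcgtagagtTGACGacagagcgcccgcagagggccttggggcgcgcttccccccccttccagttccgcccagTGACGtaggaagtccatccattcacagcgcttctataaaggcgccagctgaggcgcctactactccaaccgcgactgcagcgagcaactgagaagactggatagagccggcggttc
Nr4a1: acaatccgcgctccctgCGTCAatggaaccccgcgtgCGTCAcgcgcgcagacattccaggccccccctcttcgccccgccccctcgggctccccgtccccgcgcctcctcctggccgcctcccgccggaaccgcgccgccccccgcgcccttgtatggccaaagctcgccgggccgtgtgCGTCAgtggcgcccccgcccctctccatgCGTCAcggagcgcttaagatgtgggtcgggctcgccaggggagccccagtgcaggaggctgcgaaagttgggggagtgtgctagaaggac
Fos held 2 cores and Nr4a1 held 4. Among 46 measured immediate early genes, 35 had a window in the RefSeq table, and 23 of these (65.7%) held TGACG on either strand, against 36.5% of 8989 measured genes with a window and 20.8% of all 32851 windows. The full palindrome TGACGTCA, which contains the core, was in 5 of the 35 (14.3%), against 3.80% of measured genes and 1.79% of all windows. Jun, which was lower as well, held no TGACG in its window. These matches are descriptions of the letters in the windows only.

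The other immediate early genes were mostly lower too. Of 46 measured members of the list, which leaves out Fos, 41 were lower and 5 higher in silent cFOS+ cells, where 52.7% of all measured genes were lower and 47.3% higher. The median log2 ratio of the list was -0.68, against -0.05 over all measured genes. Of these members, 16 were at least 2-fold lower and 0 at least 2-fold higher, where 15.6% of all measured genes were at least 2-fold lower and 10.7% at least 2-fold higher. By day 29 were lower and 17 higher (median -0.32), and at night 40 were lower and 6 higher (median -1.11). Lower at both times were 26 members and higher at both times 3. With so many members lower at each time, unrelated day and night values would give a similar overlap. Differences held for 5 members: Jun, Nr4a1, Dusp4, Klf4 and Homer1 were lower. Of all measured genes, 6.05% held lower and 3.13% higher.

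Among AP-1 genes, Jun, the main partner of cFOS, ran from 0 to 740 CPM (median cell 11) in silent cFOS+ cells and from 0 to 5315 CPM (median cell 203) in active cFOS- cells. Its summed level was 168.8 CPM in silent cFOS+ and 510.9 CPM in active cFOS- cells, with log2 ratios of -1.59 by day and -1.56 at night. The day medians were close, at 265.1 CPM in silent cFOS+ and 283.1 CPM in active cFOS- cells, while the night medians were 5.73 and 192.2 CPM in these groups. Junb, an AP-1 member that restrains JUN, had 376 CPM in silent cFOS+ and 687 CPM in active cFOS- cells, a log2 ratio of -0.87 (-0.40 by day and -1.31 at night). Fosb had 105 CPM in silent cFOS+ and 170 CPM in active cFOS- cells, and Jund, the least inducible of the JUN genes, had 559.4 and 581.2 CPM in these groups.

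Nr4a1, an orphan nuclear receptor gene induced by cAMP and calcium, was detected in fewer silent cFOS+ cells. It reached 10 CPM in 9 of 51 silent cFOS+ cells (17.6%, 8.40 to 30.9%) and in 29 of 73 active cFOS- cells (39.7%, 28.5 to 51.9%). Its highest cell had 320 CPM among silent cFOS+ and 1041 CPM among active cFOS- cells, and the median cell was at 0 in both groups. The summed level was 19.96 CPM (19.5 to 20.4) in silent cFOS+ and 113 CPM (112 to 114) in active cFOS- cells, a log2 ratio of -2.44. It was -1.17 by day and -3.87 at night.

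Klf4, a zinc finger factor, had 2.58 CPM in silent cFOS+ and 41.6 CPM in active cFOS- cells, with 4 of 51 and 12 of 73 cells at 10 CPM. Homer1, whose short form is induced by activity at glutamate synapses, had 41.4 CPM in silent cFOS+ and 131.6 CPM in active cFOS- cells (log2 -1.65). Dusp4, a MAP kinase phosphatase, had 1.60 CPM in silent cFOS+ and 28.7 CPM in active cFOS- cells but came from 2 and 7 cells at 10 CPM, and its direction turned in 1 set of cells given under the dependence on processing. Btg2, an antiproliferative gene, had 84.0 CPM in silent cFOS+ and 318.2 CPM in active cFOS- cells, with a log2 ratio of -0.59 by day and -2.63 at night. Dusp1, which switches off MAP kinases, had 769 CPM in silent cFOS+ and 1325 CPM in active cFOS- cells. Arc, which removes AMPA receptors from synapses, had 104 CPM in silent cFOS+ and 265.1 CPM in active cFOS- cells.

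Not every activity-induced gene differed as much. Egr1, a zinc finger factor that follows MAP kinase signalling, ran from 0 to 11223 CPM with a median cell at 1155 CPM in silent cFOS+ cells and from 0 to 11146 CPM with a median cell at 1008 CPM in active cFOS- cells. Its summed levels were 1590 CPM in silent cFOS+ and 1871 CPM in active cFOS- cells, a log2 ratio of -0.23, and its distribution over cells was much the same in both groups. Vgf, a secreted neuropeptide precursor induced by activity and growth factors, went the other way. It reached 10 CPM in all 51 silent cFOS+ cells and in 64 of 73 active cFOS- cells, with summed levels of 266 and 183 CPM in these groups and log2 ratios of 0.39 by day and 0.69 at night.

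**Figure D1:**
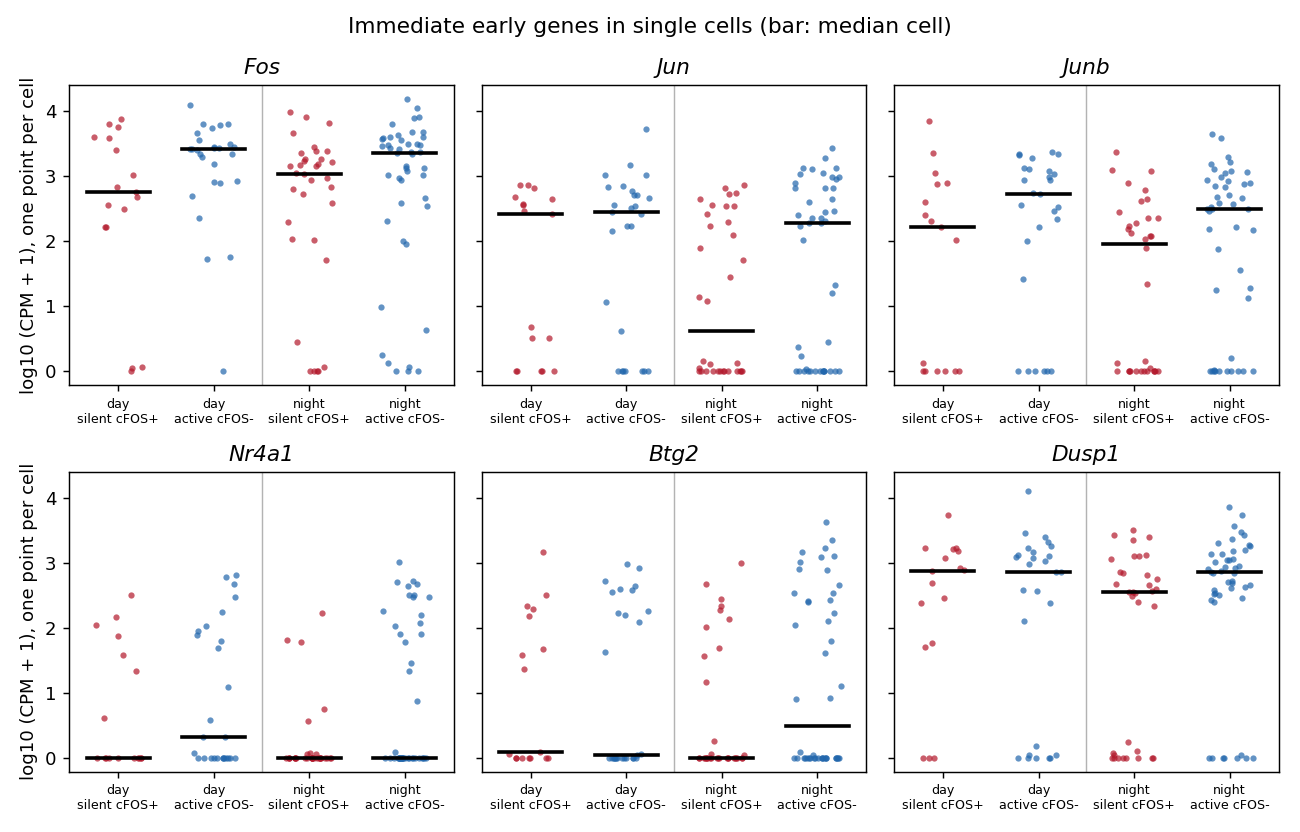
CPM of 6 immediate early genes in each cell, on a log10 (CPM + 1) axis, for day and night cells; points are cells and bars the median cell. The silent cFOS+ and active cFOS- cells overlapped for all 6 genes, and the median Fos cell was lower in silent cFOS+ cells by day (571 against 2601 CPM) and at night (1093 against 2281 CPM).

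Counted cell by cell, the median silent cFOS+ cell had 15 of the 46 genes at 10 CPM or more (range 6 to 33) and the median active cFOS- cell had 17 (range 5 to 32). By day these medians were 19 in silent cFOS+ and 18 in active cFOS- cells, and at night 13 and 17. The lower number of detected immediate early genes in silent cFOS+ cells was thus seen at night and not by day. Set among the 4 groups, silent cFOS+ cells had the lowest level for 23 of 46 members, where 26.9% of all measured genes had their lowest level in that group. They had the highest level for 1 member, against 26.5% of all measured genes. These levels pooled day and night. Day cells were 17 of 51 silent cFOS+, 32 of 66 silent cFOS- and 51 of 92 active cFOS+ cells. By day the median number of detected members was 15 in silent cFOS- and 17 in active cFOS+ cells, both under the 19 of silent cFOS+ cells.

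**Figure D2:**
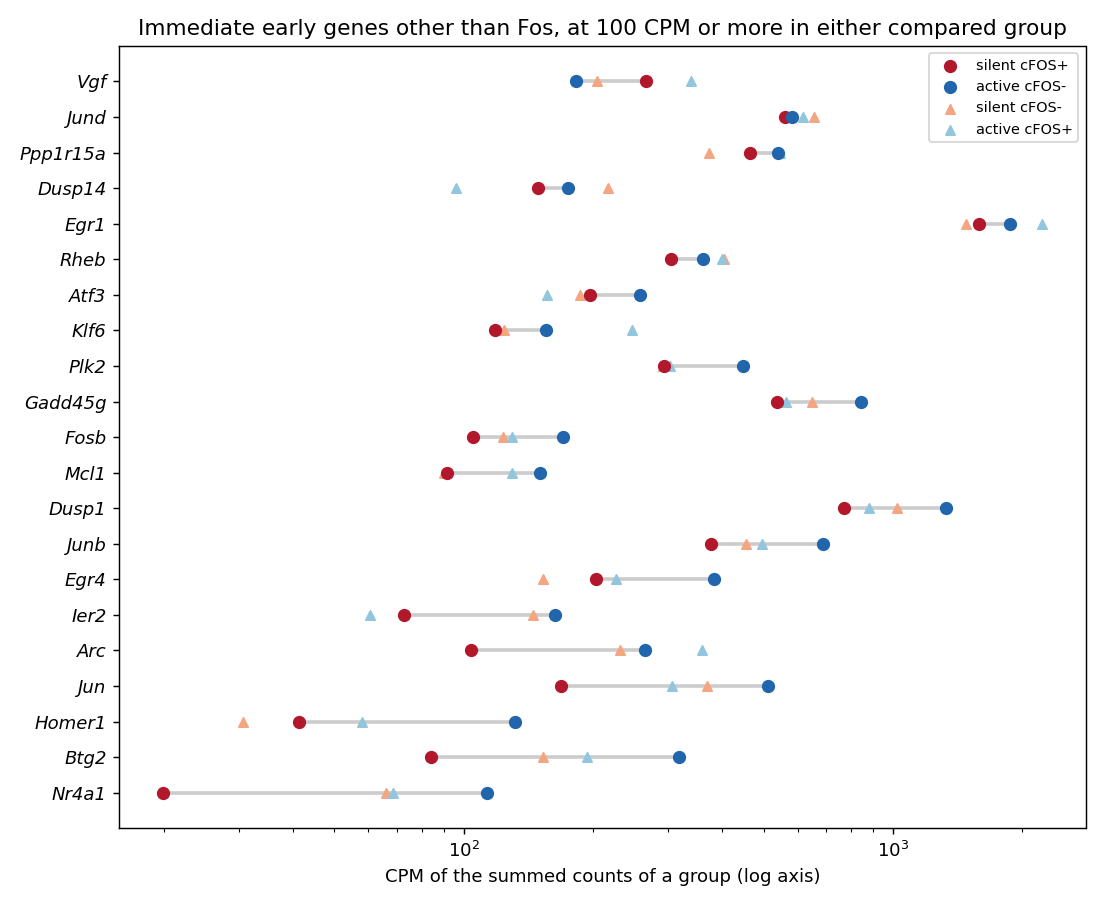
Summed level of 21 immediate early genes in the 4 active and silent groups, on a log axis in CPM, with the highest ratio of silent cFOS+ to active cFOS- cells at the top. Circles are the compared groups and triangles the silent cFOS- and active cFOS+ cells; Nr4a1 had 19.96 CPM in silent cFOS+ and 113 CPM in active cFOS- cells, with both other groups between them.

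Microglia also express immediate early genes, and their markers moved with the result. Of 13 microglia markers 2 were higher in silent cFOS+ cells and the median log2 ratio was -0.82. The summed markers ran from 0 to 35548 CPM per cell (median 2.50) in silent cFOS+ and from 0 to 37215 CPM (median 6.56) in active cFOS- cells, and none of the 13 was at 0 in either group. Cx3cr1 reached 10 CPM in 1 silent cFOS+ cell and 6 active cFOS- cells. The summed markers reached 100 CPM in 15 of 51 silent cFOS+ cells (29.4%) and in 30 of 73 active cFOS- cells (41.1%). Without those cells, 36 silent cFOS+ and 43 active cFOS- cells remained, 13 of 46 immediate early genes were higher in silent cFOS+ cells, and the median log2 ratio was -0.52. In these remaining cells Fos had a log2 ratio of -0.73. Summed microglia markers reached 100 CPM in 48.5% of silent cFOS- and 33.7% of active cFOS+ cells, so the silent cFOS+ share was the lowest of the 4 groups. Silent cFOS+ cells also had the lowest level of the 4 groups for 9 of 13 microglia markers. The part of microglial RNA in the result, the count of lowest levels among the 4 groups included, was not tested further. Day silent cFOS+ cell S408 had over 10000 CPM of these markers, as had active cFOS- cells S491 (day) and S537 (night), and Snap25 was at 1.34 CPM in S537. Without these 3 cells 5 immediate early genes were higher and the median was -0.69. Summed astrocyte markers reached 100 CPM in 68.6% of silent cFOS+ and 69.9% of active cFOS- cells, and oligodendrocyte markers in 52.9 and 46.6%.

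Markers of other hypothalamic neurons were present as well. Of 6 measured markers 4 were higher in silent cFOS+ cells (median log2 0.33), and their sum reached 100 CPM in 17 of 51 silent cFOS+ cells (33.3%) and 19 of 73 active cFOS- cells (26.03%). Th, the rate-limiting enzyme of dopamine synthesis, held a higher level with 39.8 CPM in silent cFOS+ and 0.90 CPM in active cFOS- cells, a log2 ratio of 4.42, but reached 10 CPM in 3 and 1 cells. Silent cFOS- cells had 17.6 CPM of Th and active cFOS+ cells 258.7 CPM, so silent cFOS+ cells did not have the highest level. Pomc, the precursor of melanocortins and endorphin, had 386.4 CPM in silent cFOS+ and 20.8 CPM in active cFOS- cells, in 7 and 15 cells at 10 CPM, with log2 ratios of 5.20 by day and -1.81 at night. The highest summed level was 13609 CPM in silent cFOS+ and 1009 CPM in active cFOS- cells, and both silent cFOS+ cells above 10000 CPM were day cells. The part of such cells in the other differences was not tested.

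Neuropeptides define the SCN's cell classes, with arginine vasopressin (Avp) in the shell, vasoactive intestinal peptide (Vip) in the core that receives retinal input, and neuromedin S (Nms) in many cells of both. Of 20 measured neuropeptide genes 10 were higher and 10 lower in silent cFOS+ cells, with a median log2 ratio of -0.06. Avp and Cartpt held a higher level and Cck and Penk a lower one, where 3.13% of all measured genes held higher and 6.05% lower.

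Avp ran from 0 to 38520 CPM (median cell 0.29) in silent cFOS+ cells and from 0 to 12587 CPM (median cell 0.10) in active cFOS- cells. The summed level was 3488 CPM (3481 to 3494) in silent cFOS+ and 763 CPM (760 to 765) in active cFOS- cells, a log2 ratio of 2.19. It was 3.11 by day, with 6849 and 793 CPM in these groups, and 1.19 at night, with 1695 and 744 CPM. The share of cells differed less than the level: 22 of 51 silent cFOS+ cells (43.1%, 29.3 to 57.8%) and 23 of 73 active cFOS- cells (31.5%, 21.1 to 43.4%) had 100 CPM or more, and the intervals overlapped. Among these Avp cells the median was 4513 CPM in silent cFOS+ and 1155 CPM in active cFOS- cells. By day it was 11003 CPM in 9 silent cFOS+ and 557.7 CPM in 10 active cFOS- cells, and at night 2415 and 1459 CPM in 13 cells of each group. The silent cFOS- cells had 3160 CPM of Avp and the active cFOS+ cells 2276 CPM, so the active cFOS- cells were the group with the lowest level.

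The Avp promoter is shown for its E-box, CACGTG, the site through which the clock drives this gene. The window is at chr2:130582539-130582838, minus strand, with the E-box in capitals.
Avp: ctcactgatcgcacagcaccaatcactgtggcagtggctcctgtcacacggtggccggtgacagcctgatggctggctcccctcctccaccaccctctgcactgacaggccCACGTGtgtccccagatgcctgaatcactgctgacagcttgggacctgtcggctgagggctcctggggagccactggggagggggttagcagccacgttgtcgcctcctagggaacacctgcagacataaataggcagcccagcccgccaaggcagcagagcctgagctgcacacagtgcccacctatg
CACGTG, which reads the same on both strands, was in 11.9% of 8989 measured genes with a window and in 7.15% of all windows. Among 21 measured clock genes with a window 5 held it (23.8%).

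Nms reached 100 CPM in 23 of 51 silent cFOS+ cells (45.1%, 31.1 to 59.7%) and in 19 of 73 active cFOS- cells (26.03%, 16.5 to 37.6%). By day the counts were 10 of 17 silent cFOS+ and 7 of 27 active cFOS- cells, and at night 13 of 34 and 12 of 46. Avp and Nms were both at 100 CPM in 14 silent cFOS+ and 11 active cFOS- cells. Vip was in 6 silent cFOS+ cells (11.8%) and 10 active cFOS- cells (13.7%), against 31.5% of active cFOS+ cells. Its summed level was 1614 CPM in silent cFOS+ and 1440 CPM in active cFOS- cells, with 808 CPM in silent cFOS- and 4959 CPM in active cFOS+ cells. Vip cells were thus about as frequent in both compared groups.

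Cartpt, which encodes the CART peptide, had 282.6 CPM in silent cFOS+ and 33.6 CPM in active cFOS- cells, and 6 of 51 and 7 of 73 cells had 100 CPM or more. Penk, the enkephalin precursor, had 89.8 CPM in silent cFOS+ and 414 CPM in active cFOS- cells, with 8 and 16 such cells. Cck, the cholecystokinin gene, had 18.5 CPM in silent cFOS+ and 80.4 CPM in active cFOS- cells, with 2 and 5 such cells. Each of these levels was set by few cells. Sst, the somatostatin gene, shows this plainly: by day it had 1.98 CPM in silent cFOS+ and 1535 CPM in active cFOS- cells, and at night 355.7 and 214.7 CPM in these groups, with 2 of 51 and 9 of 73 cells at 100 CPM. None of 13 peptides reached 100 CPM in 6 silent cFOS+ and 11 active cFOS- cells.

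**Figure D3:**
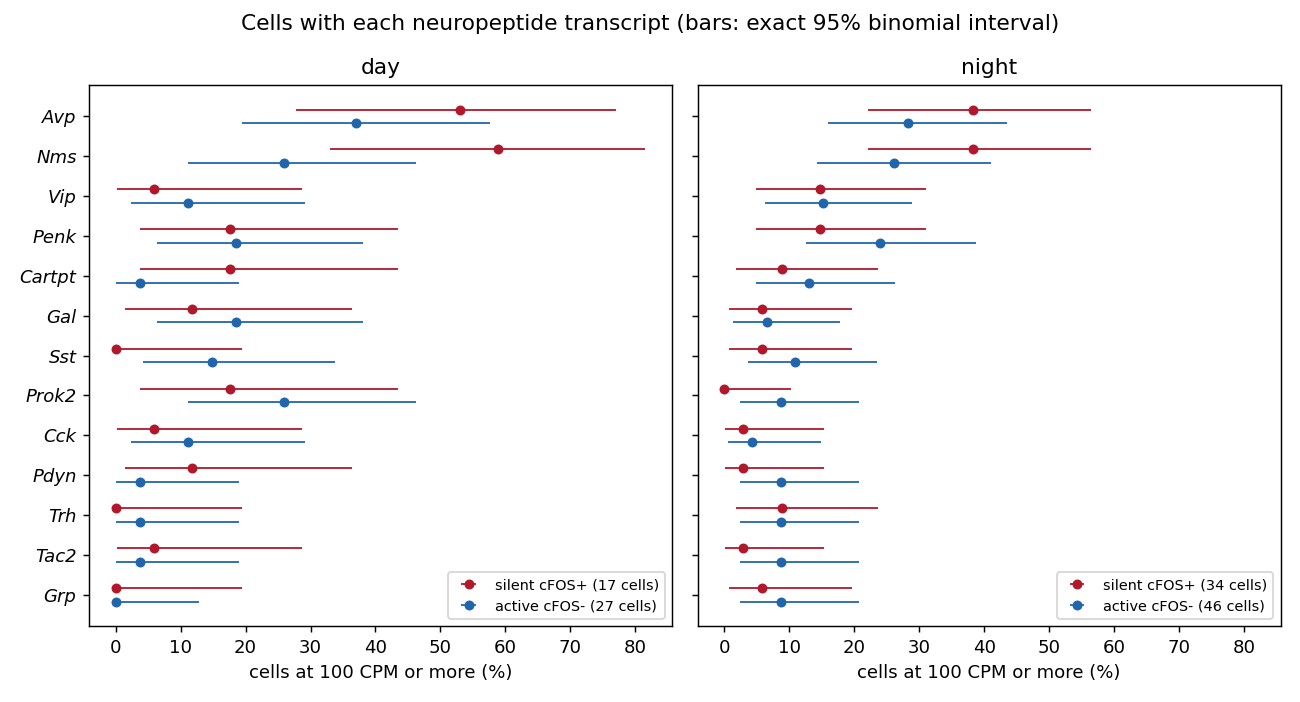
Percentage of cells with 100 CPM or more of each of 13 neuropeptide transcripts, by day and at night, with exact binomial 95% intervals. The widest gap was that of Nms by day, with 58.8% of silent cFOS+ and 25.9% of active cFOS- cells, and the intervals of the compared groups overlapped for every peptide.

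Of 21 measured peptide receptor genes 8 were higher in silent cFOS+ cells and the median log2 ratio was -0.62, but the medians of day and night cells differed in sign (0.41 by day and -0.31 at night). Avpr1a, the vasopressin receptor through which SCN neurons couple, had 24.1 CPM in active cFOS- cells, where 8 of 73 cells reached 10 CPM. None of the 51 silent cFOS+ cells did, and 0 of 51 allows a share of up to 6.98% by the exact interval. Prokr2, the receptor of the SCN output peptide prokineticin 2, had 92.4 CPM in silent cFOS+ and 310 CPM in active cFOS- cells. By day it was at 0 in silent cFOS+ and at 526 CPM in active cFOS- cells, and at night 141.7 and 176.01 CPM. Oprl1, the nociceptin receptor, had 301 CPM in silent cFOS+ and 193 CPM in active cFOS- cells.

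Ion channels set whether an SCN neuron fires. Among calcium-activated, K2P leak and inward rectifier potassium channels, 11 of 20 were higher in silent cFOS+ cells (median log2 0.03). Kcnk1, the K2P leak channel TWIK-1, reached 10 CPM in 16 of 51 silent cFOS+ cells (31.4%, 19.1 to 45.9%) and in 9 of 73 active cFOS- cells (12.3%, 5.80 to 22.1%). It ran from 0 to 928 CPM in silent cFOS+ and from 0 to 344.7 CPM in active cFOS- cells, with the median cell at 0 in both. Its summed levels of 89.4 CPM in silent cFOS+ and 22.8 CPM in active cFOS- cells gave log2 ratios of 1.87 by day and 1.94 at night. Without the cells that held microglia markers the ratio of Kcnk1 was 0.24. Kcnn3, the calcium-activated channel SK3, had 39.6 CPM in silent cFOS+ and 17.2 CPM in active cFOS- cells (log2 1.16). In this list Kcnmb2, Kcnn3 and Kcnk1 held a higher level, and Kcnk12 and Kcnj10 a lower one. Of all measured genes, 3.13% held higher and 6.05% lower.

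Of 30 voltage-gated potassium channel genes 16 were higher (median 0.16). Kcnab1, a beta subunit that speeds inactivation, had 22.3 CPM in silent cFOS+ and 5.13 CPM in active cFOS- cells, in 6 and 3 cells at 10 CPM. It was the only member to hold a higher level, while Kcna2 and Kcnf1 held a lower one. Of 12 sodium channel genes and NALCN 5 were higher (median -0.14). Scn8a, the NaV1.6 channel of the axon initial segment, had 101 CPM in silent cFOS+ and 57.9 CPM in active cFOS- cells, with log2 ratios of 0.81 by day and 0.81 at night. Fam155a, of the same list, went the other way with 15.8 CPM in silent cFOS+ and 60.5 CPM in active cFOS- cells. No member of this list held.

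Calcium channel, calcium release and HCN channel genes were lower more often: 10 of 28 were higher in silent cFOS+ cells, where 47.3% of all measured genes were higher. Their median log2 ratio was -0.31 (-0.31 by day and -0.39 at night). Cacna1d, Ryr1, Ryr2, Ryr3 and Itpr1 held a lower level, as did 6.05% of all measured genes. Cacna1d, the low-threshold L-type channel CaV1.3, had 50.02 CPM in silent cFOS+ and 118 CPM in active cFOS- cells, though the shares of cells at 10 CPM were close, at 39.2% of silent cFOS+ and 39.7% of active cFOS- cells. Ryr3, a calcium release channel of the endoplasmic reticulum, had 19.6 CPM in silent cFOS+ and 63.8 CPM in active cFOS- cells, with 7 of 51 and 19 of 73 cells at 10 CPM.

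Of 24 glutamate receptor genes 5 were higher in silent cFOS+ cells and 19 lower, where 47.3% of all measured genes were higher and 52.7% lower. The median log2 ratio of the list was -0.34 (-0.22 by day and -0.35 at night). Gria3, an AMPA receptor subunit, had 7.10 CPM in silent cFOS+ and 72.5 CPM in active cFOS- cells, and reached 10 CPM in 4 of 51 and 19 of 73 cells. Gria2, another AMPA subunit, had 475.01 CPM in silent cFOS+ and 552.9 CPM in active cFOS- cells. Of 16 GABA receptor genes 9 were higher (median 0.04), and Gabra4 held a lower level with 6.19 CPM in silent cFOS+ and 25.9 CPM in active cFOS- cells.

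Genes of the neuronal and secretory machinery leaned the other way from the immediate early genes. Of 19 neuronal and GABA markers 13 were higher in silent cFOS+ cells (median log2 0.24; 0.07 by day and 0.27 at night). Nefm, a neurofilament subunit, had 79.6 CPM in silent cFOS+ and 28.2 CPM in active cFOS- cells and was the 1 member to hold. Gad2, which makes GABA, had 323 CPM (median cell 148) in silent cFOS+ and 229 CPM (median cell 4.29) in active cFOS- cells. Of 33 secretory genes 22 were higher (median 0.11, with 0.21 by day and 0.23 at night), and 12 were higher at both times. Of all measured genes 47.3% were higher, with a median of -0.05, so the secretory lean was small. Ptprn, the dense-core vesicle protein IA-2, had a median cell at 401.4 CPM in silent cFOS+ and 230 CPM in active cFOS- cells, with log2 ratios of the summed levels of 0.66 by day and 0.59 at night. Rab27b, a vesicle docking GTPase, had 89.5 CPM in silent cFOS+ and 42.01 CPM in active cFOS- cells.

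Clock genes did not lean one way. Of 26 measured members 11 were higher in silent cFOS+ cells (median log2 -0.15), with 16 higher by day (median 0.12) and 10 at night (median -0.43), and none held a 2-fold difference. Per1, a clock repressor that is also induced early by light, ran from 0 to 414 CPM (median cell 6.29) in silent cFOS+ and from 0 to 664 CPM (median cell 25.4) in active cFOS- cells. Its summed levels were 34.7 CPM in silent cFOS+ and 76.3 CPM in active cFOS- cells, with log2 ratios of -0.97 by day and -1.20 at night. Nfil3, a repressor of D-box genes, had 42.6 CPM in silent cFOS+ and 103 CPM in active cFOS- cells. Per2 and Arntl, core clock genes, had 241.96 and 179.4 CPM in silent cFOS+ cells and 300.7 and 166.1 CPM in active cFOS- cells.

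Among 51 genes of cAMP, calcium and CREB signalling 25 were higher in silent cFOS+ cells (median -0.05). Creb1, which binds the cAMP response element, had 7.43 CPM in silent cFOS+ and 52.2 CPM in active cFOS- cells, with 6 of 51 and 14 of 73 cells at 10 CPM, and held. Adcy2, an adenylate cyclase, had 65.7 CPM in silent cFOS+ and 161 CPM in active cFOS- cells and held as well. Adcy9, another cyclase, held a higher level with 36.04 CPM in silent cFOS+ and 15.5 CPM in active cFOS- cells.

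The study's title names a phosphate transporter. Slc20a1, the phosphate importer PiT-1, had 116 CPM in silent cFOS+ and 195 CPM in active cFOS- cells (log2 -0.74). Slc20a2, the importer PiT-2, had 56.6 CPM in silent cFOS+ and 64.9 CPM in active cFOS- cells, with log2 ratios of -1.88 by day and 0.09 at night. Xpr1, the phosphate exporter, had 100.5 CPM in silent cFOS+ and 95.3 CPM in active cFOS- cells, a log2 ratio of 0.07. By day it had 153.4 CPM in silent cFOS+ and 88.9 CPM in active cFOS- cells (log2 0.78), and at night 72.2 and 99.3 CPM (log2 -0.45), so its direction differed between day and night. Of 14 measured genes of phosphate transport and inositol phosphate kinases 5 were higher (median -0.30).

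Of 22 measured SCN transcription factor genes 6 were higher in silent cFOS+ cells (median log2 -0.24), where 47.3% of all measured genes were higher. Lhx1, a homeobox factor needed for synchrony of SCN neurons, had 46.9 CPM in silent cFOS+ and 94.1 CPM in active cFOS- cells, and Six6, needed to form the SCN, had 69.2 and 44.4 CPM in these groups. Of 19 heat shock and stress genes 9 were higher (median -0.04). Chac1, a glutathione-degrading enzyme of the stress response, held a lower level with 7.95 CPM in silent cFOS+ and 50.9 CPM in active cFOS- cells. Of 22 sodium-potassium ATPase and chloride transport genes 9 were higher (median -0.08). The heat shock and the ATPase lists lay near the median of all measured genes.

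Respiratory chain genes leaned upward in silent cFOS+ cells and split by time of day. Of 63 nuclear respiratory chain genes 55 were higher pooled (median log2 0.30), 24 by day (median -0.09) and 59 at night (median 0.50). Of 8 measured mitochondrially encoded genes 7 were higher pooled, 0 by day (median -0.50) and 8 at night (median 0.55). The differences were small for each gene, and none of these 71 reached 2-fold. Oligodendrocyte markers split by time in the same direction: of 6 measured, 0 were higher by day (median log2 -2.34) and 6 at night (0.39). Their sum reached 100 CPM in 47.1% of silent cFOS+ and 55.6% of active cFOS- cells by day, and in 55.9 and 41.3% at night. Their part in the mitochondrial and respiratory differences was not tested. Ndufa3, a complex I subunit, had 97.05 CPM in silent cFOS+ and 59.8 CPM in active cFOS- cells, and Atp5c1, of ATP synthase, had 411.8 and 262.5 CPM in these groups. The mitochondrial mt-Co1 had 1042 CPM in silent cFOS+ and 1464 CPM in active cFOS- cells by day, and 1558 and 859 CPM at night. Among the 4 groups the silent cFOS+ cells had the highest level for 32 of the 63 nuclear genes, against 26.5% of all measured genes. These levels pooled day and night, and 17 of 51 silent cFOS+ but 51 of 92 active cFOS+ cells were day cells. Of the measured mitochondrial genes 1 of 9 was higher with only cells numbered under 320 in the titles, and 9 of 10 with only those numbered over 320. Most cells numbered under 320 were night cells in both compared groups, yet their mitochondrial genes went against the night direction given above. Cell number and time of day were thus mixed, and the split by time was not tested within each range.

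**Figure D4:**
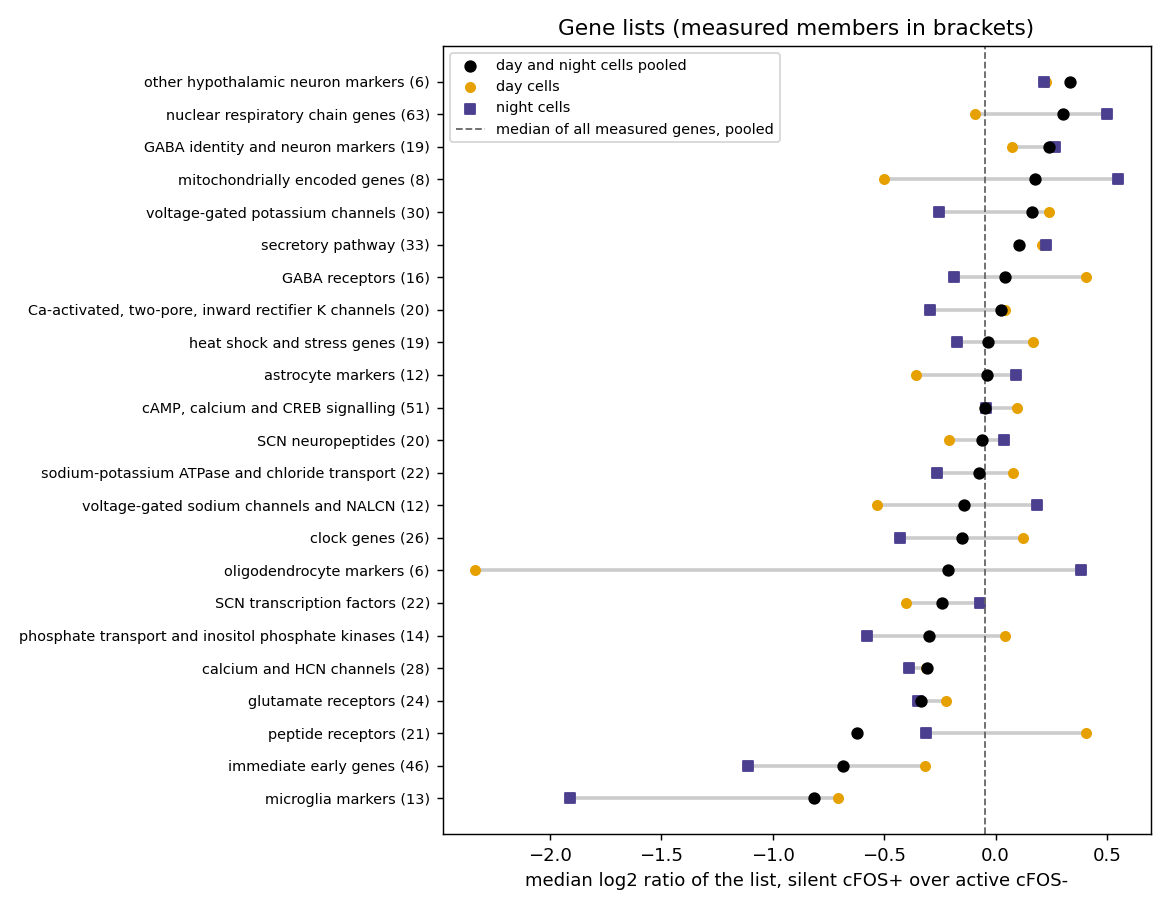
Median log2 ratio, silent cFOS+ over active cFOS-, of each gene list with 6 or more measured members, for all cells and for day and night cells alone; the dashed line is the median of all measured genes. Immediate early genes lay at -0.68 pooled, with -0.32 by day and -1.11 at night, and nuclear respiratory chain genes at 0.30, with -0.09 by day and 0.50 at night.

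Single genes were ranked over all measured genes by the smallest of 5 ratios: pooled, day, night, mean over cells and without the highest cell of each group. Eligible genes had 20 CPM and at least 20% of cells at 10 CPM in the higher group. They also had the same direction in all 5 ratios and in the share of cells at 10 CPM. The direction of the cell counts given for ranked genes was thus fixed by the rule. Of 2579 such genes, 1470 were higher and 1109 lower in silent cFOS+ cells. The limits applied to the higher group only, and the groups differ in cell number. This split thus cannot show which direction was more common. Of all measured genes, 47.3% were higher in silent cFOS+ cells with day and night pooled. The 15 highest and 15 lowest are the far ends of a wide spread and belong to no list given above except Kcnk1.

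By the GENCODE M21 annotation of GRCm38, Epn2 lies on chromosome 11 from 61517249 to 61579687, minus strand, and Abcc1 on chromosome 16 from 14361558 to 14475737, plus strand. Highest in rank was Epn2, which encodes the endocytic adaptor epsin 2. It reached 10 CPM in 17 of 51 silent cFOS+ cells and 6 of 73 active cFOS- cells, and its summed levels were 78.1 CPM (77.2 to 79.0) in silent cFOS+ and 5.07 CPM (4.88 to 5.27) in active cFOS- cells. The log2 ratio was 3.70, with 4.14 by day and 3.42 at night. Next were Phf6, a chromatin-associated zinc finger protein (71.1 CPM in silent cFOS+ and 9.67 CPM in active cFOS- cells), Tmlhe, the first enzyme of carnitine synthesis (45.2 and 5.79 CPM), and Megf9, a membrane protein with EGF-like repeats (28.5 and 5.09 CPM). Rbfox1, a neuronal splicing factor, had 51.1 CPM in silent cFOS+ and 11.4 CPM in active cFOS- cells. The other higher genes were Ankrd34a, Ammecr1, Kcnk1, Pih1d1, Me2 (mitochondrial malic enzyme), Brd1 (a bromodomain protein), Jmjd4, Rbfa, Fggy and Cptp (a ceramide-1-phosphate carrier), with log2 ratios from 1.64 to 2.44.

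Lowest in rank was Cep95, a centrosomal protein gene, at 10 CPM in 2 of 51 silent cFOS+ and 17 of 73 active cFOS- cells, with summed levels of 1.17 and 42.6 CPM. Abcc1, the multidrug exporter MRP1, had 2.70 CPM in silent cFOS+ and 69.8 CPM in active cFOS- cells, in 2 and 20 cells at 10 CPM (log2 -3.76 by day and -4.62 at night). Brsk2, a kinase of neuronal polarity, had 6.43 CPM in silent cFOS+ and 64.5 CPM in active cFOS- cells. Cdk12, a kinase of transcription elongation, had 8.12 CPM in silent cFOS+ and 54.0 CPM in active cFOS- cells. Trit1, a tRNA-modifying enzyme gene, had 17.1 CPM in silent cFOS+ and 123.3 CPM in active cFOS- cells. The other lower genes were Agap1, Rad54l2, Usp40, Dtnb, Pcyox1l, Sash1, Pla2g6, Eif4e3, Ccdc66 and Mepce, with log2 ratios from -3.49 to -2.13. In silent cFOS- and active cFOS+ cells the levels of all 5 described lower genes lay between those of the compared groups. Exons of Jmjd4, Pih1d1, Usp40, Eif4e3 and Ccdc66 overlap another counted gene in this annotation, as do those of Junb, Jund, Dusp1, Slc20a2, Cacna1d, Ryr3, Gabra4, Nefm, Ndufa3 and Six6 described above. The counts of all these genes are uncertain without strand, the held differences of Cacna1d, Ryr3, Gabra4 and Nefm included. The symbol Tmlhe had no match in the annotation used, so its overlap was not assessed.

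**Figure D5:**
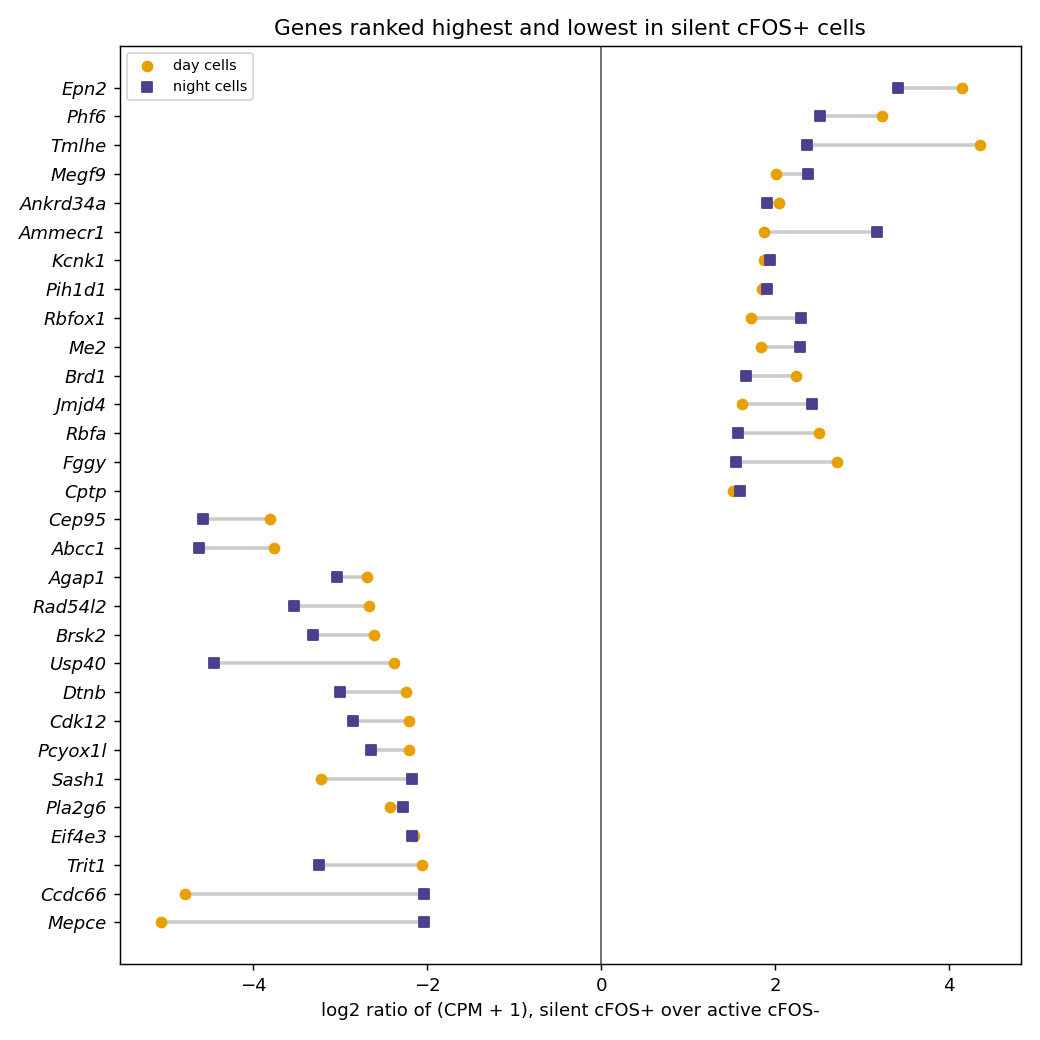
Log2 ratio of (CPM + 1), silent cFOS+ over active cFOS-, by day and at night for the 15 genes ranked highest and the 15 ranked lowest. The day and night values share a sign by the ranking rule, which required it; Epn2 had 4.14 by day and 3.42 at night.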

How the data were processed

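Single neurons of the mouse SCN were sequenced as 1 library each, with no molecular identifiers named in the labels, so counts are reads and every interval covers counting error only. The deposited table holds raw counts per gene symbol, and a second deposited table holds the authors' normalized signal, used here as an alternative; their log table was not used. STAR, DESeq2 and GRCm38.p4 are named in the submitters' processing notes; for the counting tool, the annotation and the strand setting, nothing is stated in those sources. CPM of a group was its total count for a gene divided by its total over all genes; no cell was filtered out by quality, and no doublet caller was run; per the labels each library came from 1 patched neuron, and RNA of neighbouring cells in the pipette was not tested for. The log2 ratio used a pseudocount of 1 CPM and genes at 5 CPM or more in either group. Shares of cells at 10 CPM, or 100 CPM for peptides and summed microglia markers, have exact Clopper-Pearson 95% intervals. Gene positions come from GENCODE M21 on GRCm38, and promoter windows from RefSeq on GRCm38.p6.

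Each group counted as 1 sample, so no test was made; differences were described by a 2-fold limit (1 on the log2 scale). The genes named were the 15 highest and 15 lowest by the smallest of 5 ratios. They had 20 CPM in the higher group and 10 CPM in at least 20% of its cells. All 5 ratios and the share of cells at 10 CPM had to share 1 direction, also for the leading genes of lists. Up to 4 leading genes of each described list and 11 genes always given (Fos, Junb, Egr1, Nr4a1, Per1, Vip, Avp, Sst, Slc20a1, Slc20a2, Xpr1) were added. The ranking skipped predicted genes, ribosomal genes and genes of the mitochondrial genome. Some further list members were named after their values were seen, and a few members are not reported here. The members and the 25 gene lists were chosen with earlier results of these data known. Python 3.11.15 with numpy 2.4.6, pandas 2.3.3, scipy 1.17.1 and matplotlib 3.10.9 was used, and the computation was tested on simulated data.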

Additional observations from a re-analysis of the deposited data

How the results depend on the processing

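The 30 ranked genes kept their direction under all settings tried for them, and 23 of 30 stayed at 2-fold or more. The ranking rule had required that direction pooled, by day, at night, as a mean over cells and without the highest cell of each group. Those settings, equal weighting of day and night and the larger pseudocount thus could not turn it. The genes were also chosen for large ratios in the ranking. The log2 ratio of Fos was -0.61 as a mean over cells, -0.72 without the highest cell of each group, -0.71 with day and night weighted equally, -0.75 after thinning, -0.55 on the authors' normalized values, -0.73 without cells at 100 CPM of microglia markers, and -1.30 and -0.60 with cell numbers under and over 320. Of the immediate early genes, 8 were higher with equal weighting, 2 among those at 20 CPM or more, 13 without the microglia-marker cells and 8 with numbers over 320. As shares of all 22800 genes, 5.60% were 2-fold higher and 8.13% lower as reported, of which 1.63% and 3.15% held. With a pseudocount of 10 CPM these shares were 1.98% higher and 3.26% lower, with 0.38% and 0.86% held, and with a limit of 20 CPM 2.92% and 4.36%, with 0.95% and 1.77% held. The share held higher was 2.59% without the microglia-marker cells, 2.85% with numbers under 320 and 2.62% with numbers over 320. With numbers under 320, 9.46% were 2-fold higher and 5 clock genes were higher. Among genes at least 2-fold apart, direction turned for Gabra2 (0.43) and Sst (0.044) with numbers under 320, and for Dusp4 (1.37) with numbers over 320; the cause was not tested. Smaller ratios turned too: that of Vip, 0.16 as reported, was -0.99 and 1.26 with numbers under and over 320, that of Xpr1 ran from -0.07 to 0.36, and that of Slc20a2 from -1.09 to 0.01. The cell without a number, S5162, was in neither range. The setting without cells at 10000 CPM of microglia markers was chosen after seeing the data. No paired analysis was possible because each group was 1 sample and no label ties cells of the groups to a shared animal or slice. Many levels were set by few cells. Dependence on depth was examined only by thinning to 4000000 reads. After thinning, 6 immediate early genes were higher, and 5.80% of all genes were 2-fold higher and 7.96% lower.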
